A study of Mus musculus with 6 samples.

Results

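The BCL2 family decides whether the outer mitochondrial membrane of a cell stays intact, and caspase 9 is the first protease to act once it does not. Taken here by gene name were 9 genes: Bcl2, Bcl2l1, Bcl2l2 and Mcl1, which protect the membrane, Bax and Bak1, which perforate it, Bid and Bad, which carry the death signal to the others, and Casp9. All 9 were found among the 55414 genes of the table, once each, and all 9 passed the minimum for testing, a mean of at least 1 TPM (a transcript level scaled for transcript length and for the total of the library) over all libraries, which left 14916 genes. The RNA came from mouse hippocampus, in 3 libraries whose treatment is labelled CerM and 3 labelled vehicle. What CerM stands for is not given in the labels used here, nor are strain, sex, age, dose or duration for either group. The titles call the libraries biological replicates, but nothing ties each to its own animal, so p-values here speak only of the spread among these libraries. That spread includes differences in the tissue they held, given below, and may in part be technical. The series title ties the study to ceramides made by gut bacteria, depression induced by corticosterone and mitochondrial function.

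Cells under stress activate BH3-only proteins such as BID and BAD, named for the short BH3 stretch they share with the rest of the family. The guardians (BCL2, BCL-XL from Bcl2l1, BCL-W from Bcl2l2, and MCL1) bind that stretch in a groove on their surface and hold the pore formers BAX and BAK in check. When the guardians are overcome, BAX and BAK perforate the membrane, cytochrome c leaks out and joins APAF1 in the apoptosome, and caspase 9 is activated there and cleaves the executioner caspases. Much of this control acts on the proteins, through cleavage of BID, phosphorylation of BAD, rapid turnover of MCL1 and movement of BAX to mitochondria, and RNA levels do not show it. Ceramide is a lipid with a long-studied link to this pathway, and mature neurons are known to rely on BCL-XL.

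The stretch that ties the family together is shown first, because the groups below (guardians, pore formers, BH3-only) are groups of proteins that meet through it. The lines give coding bases of each gene, 5′ to 3′, from the principal GENCODE M21 transcript, matched to the table by Ensembl identifier. Capitals mark the 6 codons of the BH3 core, a leucine or methionine, any 3 residues, a glycine or serine, and an aspartate, with 5 codons on either side.
Bcl2: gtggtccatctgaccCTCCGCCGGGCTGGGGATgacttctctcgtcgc
Bcl2l1: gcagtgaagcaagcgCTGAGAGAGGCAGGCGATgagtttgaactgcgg
Bcl2l2: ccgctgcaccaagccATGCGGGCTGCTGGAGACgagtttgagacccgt
Mcl1: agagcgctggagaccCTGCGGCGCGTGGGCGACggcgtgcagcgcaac
Bax: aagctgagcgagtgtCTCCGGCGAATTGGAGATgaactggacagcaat
Bak1: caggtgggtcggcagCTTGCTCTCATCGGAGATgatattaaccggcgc
Bid: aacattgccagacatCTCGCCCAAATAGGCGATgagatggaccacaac
Bad: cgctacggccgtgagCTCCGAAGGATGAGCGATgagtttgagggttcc

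Each of the 8 family genes held the pattern exactly 1 time in its coding sequence. Of 21767 coding genes searched the same way, 29.7% held it at least 1 time and 21.5% exactly 1 time, so the letters alone do not set the family apart. Only 4 of the 18 core bases were identical in all 8 genes, and pairs of genes shared between 5 bases (Bcl2l2 and Bid) and 13 bases (Bcl2 and Bax), with a median of 10. The last codon was GAT in 6 genes and GAC in 2, Bcl2l2 and Mcl1. Bad alone had a serine codon, AGC, where the other 7 have a glycine codon, and Bcl2l2 alone started the core with ATG. Casp9 has no BH3 stretch, and the codons of its active site, around the catalytic cysteine, are in capitals on the next line.
Casp9: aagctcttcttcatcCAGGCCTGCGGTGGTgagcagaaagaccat

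None of the 9 genes differed between CerM and vehicle hippocampus beyond the spread between libraries, and the intervals are narrow enough to limit how large a difference could be. Log2 fold changes, CerM over vehicle on the scale of log2(TPM + 1), ran from −0.14 for Bax to 0.11 for Casp9, with 3 genes above 0 and 6 below. Bcl2l1 under quantile normalization, and Bcl2l1 and Bak1 under scaling without mitochondrial genes, turned to just above 0. Bcl2, Bcl2l2, Bid and Bad also changed sign in other settings given below. Only Mcl1, Bax and Casp9 kept their sign in all settings. Limma, fitted over all tested genes, gave unadjusted p-values of 0.221 (Bax) to 0.994 (Bak1) and p-values adjusted by Benjamini-Hochberg of 0.99 to 0.999. It called 0 of the 9 genes at an adjusted p below 0.05, against 0% of all tested genes. At an unadjusted p below 0.05 there were 0 of 9, against 2.7% of all tested genes. The groups overlapped in all 9 genes, where 7.3% of all tested genes had groups that did not. The median of the 9 was −0.003, beside 0.03 for all tested genes. All 9 had a 95% confidence interval within 1.5-fold of TPM + 1 in either direction, which holds for 63.7% of all tested genes. The lowest bound was −0.44, for Bcl2, and the highest 0.41, for Casp9. Bcl2, the least abundant of the 9, had the widest interval. For a gene that low, a fold change of TPM + 1 understates that of TPM itself, so its TPM is bounded less tightly.

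**Figure D1:**
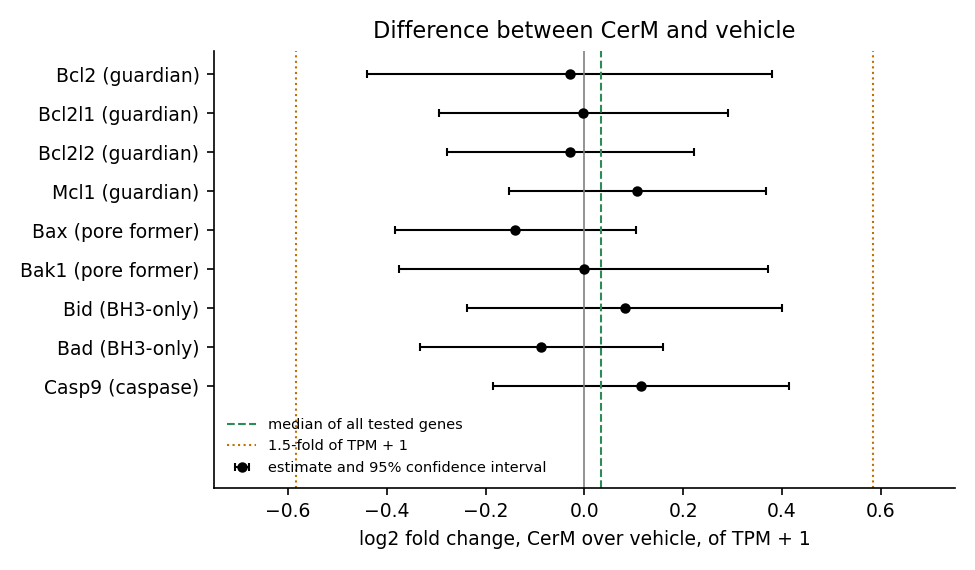
Log2 fold change of TPM + 1, CerM over vehicle, for each of the 9 genes (horizontal axis), with the 95% confidence interval of the limma fit over 3 libraries per group. Each interval includes 0 and the dashed line of the median tested gene (0.03). None reaches the dotted lines, which mark a 1.5-fold difference of TPM + 1.

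The levels of the 9 genes stood in nearly the same order in all 6 libraries. From the mean over 6 libraries, Bcl2l1 was highest at 91.9 ± 9.59 TPM (SD, n = 6), followed by Bax at 80.3 ± 7.20, Bcl2l2 at 65.9 ± 5.21, Bad at 50.2 ± 4.09, Mcl1 at 29.0 ± 2.42, Bak1 at 13.8 ± 1.93, Casp9 at 11.3 ± 1.09, Bid at 9.74 ± 1.02 and Bcl2 at 2.53 ± 0.31 TPM. TPM is scaled for length, so genes can be set side by side. How reads were divided between overlapping genes is not stated, which limits the levels of Bid, Bad, Bcl2l2 and Bak1, as described below. Ranked within each library, places 3 to 9 were held by the same genes in all 6 libraries. The first and second places changed hands 1 time: Bcl2l1 lay above Bax in 5 libraries and below it in vehicle replicate 1. Bcl2l1 stood at 0.946 to 1.24 times Bax within libraries. The ranges of this pair overlapped, and its difference was not tested. Bax and Bcl2l2, Bak1 and Casp9, and Casp9 and Bid had ranges that overlapped between libraries, yet the first of each pair was the higher within each of the 6 libraries, by 1.15 to 1.34 times, 1.09 to 1.43 times and 1.07 to 1.27 times. The other neighbours had ranges that did not touch. Among all tested genes Bcl2l1 lay above 89.0% of genes by mean TPM and Bcl2 above 14.1%.

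**Figure D2:**
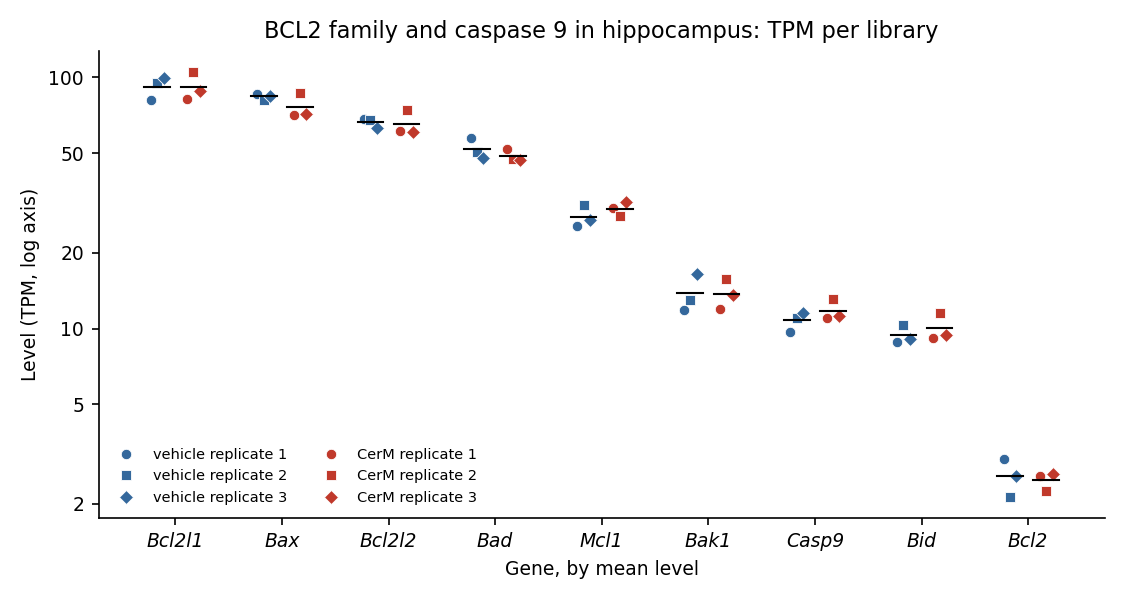
TPM of each gene in each library on a log axis, with genes ordered by mean level, vehicle in blue, CerM in red, marker shapes for replicates 1 to 3 and a bar at each group mean. The highest gene, Bcl2l1, and the lowest, Bcl2, stand at 91.9 and 2.53 TPM, and within each gene the red and blue points overlap.

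Among the guardians, Bcl2l1, which encodes BCL-XL, had 82.00, 105.15 and 88.68 TPM in CerM replicates 1 to 3 and 81.34, 95.35 and 99.14 in vehicle replicates 1 to 3. The means were the same to 3 digits, 91.9 ± 11.9 and 91.9 ± 9.38 TPM (SD, n = 3 each), with the highest library in CerM and the lowest in vehicle. The log2 fold change was −0.003 with a 95% interval of −0.30 to 0.29. Bcl2l2, which encodes BCL-W, a guardian found in many neurons, had 61.45, 74.20 and 60.42 TPM in CerM and 68.27, 67.81 and 63.17 in vehicle. CerM replicate 2 was the highest of all 6 and CerM replicates 1 and 3 the lowest, so the CerM values enclosed the vehicle values. The log2 fold change of Bcl2l2 was −0.03 (−0.28 to 0.22).

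Mcl1, whose protein is short-lived, had 30.18, 28.07 and 31.87 TPM in CerM and 25.59, 30.91 and 27.09 in vehicle. Its means, 30.0 ± 1.90 and 27.9 ± 2.74 TPM, lay closer than the range of either group, and the log2 fold change was 0.11 (−0.15 to 0.37). Vehicle replicate 2 was above 2 of the 3 CerM libraries. Bcl2, the founding member of the family, had 2.59, 2.25 and 2.63 TPM in CerM and 3.01, 2.14 and 2.58 in vehicle. Both the highest and the lowest value of Bcl2 came from vehicle libraries, replicates 1 and 2. Its log2 fold change was −0.03 (−0.44 to 0.38). The table keeps no read depth, so the counting error behind a level as low as that of Bcl2 is unknown.

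Most guardian transcripts came from Bcl2l1 and Bcl2l2. As a share of the summed TPM of the 4 guardians, Bcl2l1 took 45.6% to 51.6% over the 6 libraries, Bcl2l2 32.9% to 38.3%, Mcl1 13.4% to 17.4% and Bcl2 1.07% to 1.69%. The sum itself was 190 ± 17.6 TPM in CerM and 189 ± 9.41 TPM in vehicle. Each of the 4 shares overlapped between the groups. The share of Bcl2l2 was highest in vehicle replicate 1 and that of Mcl1 in CerM replicate 3.

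Of the pore formers, Bax had the largest difference of the 9 genes and the smallest p. Its values were 70.97, 87.00 and 71.65 TPM in CerM and 85.96, 81.66 and 84.57 in vehicle. CerM replicates 1 and 3 lay below all vehicle libraries, and CerM replicate 2 lay above all of them. The means were 76.5 ± 9.07 and 84.1 ± 2.19 TPM, the log2 fold change was −0.14 (−0.38 to 0.10), and the two-sided exact permutation p was 0.4, where 3 against 3 libraries cannot go below 0.1. Without CerM replicate 2 the log2 fold change of Bax was −0.23 (limma's adjusted p 0.999), without CerM replicate 1 it was −0.09, and without vehicle replicate 1 and CerM replicate 3 it was −0.08. Bak1, which encodes BAK, the pore former that sits in the mitochondrial membrane in healthy cells, had 11.92, 15.72 and 13.60 TPM in CerM and 11.90, 13.04 and 16.46 in vehicle. The 2 lowest libraries, CerM replicate 1 and vehicle replicate 1, were nearly equal, and vehicle replicate 3 was the highest. Its log2 fold change was −0.001 (−0.37 to 0.37). Bax made up 83.7% to 87.8% of the TPM of the pair.

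The ratio of pore formers to guardians, a common way to summarise the balance of the family at the RNA level, is a description here and was not tested. Bax plus Bak1 over the 4 guardians came to 0.470, 0.490 and 0.464 in CerM replicates 1 to 3 and 0.549, 0.483 and 0.526 in vehicle replicates 1 to 3. The groups overlapped, since vehicle replicate 2 was below CerM replicate 2, and the means were 0.475 ± 0.013 and 0.519 ± 0.034 (SD, n = 3 each). Bok, a BAX-like gene described below with a level close to that of Bax, is not in this ratio. Its lowest value, 42.66 TPM, was in vehicle replicate 1, where the ratio was highest, so the order of libraries depends on leaving it out. The ratio of Bax to Bcl2, often quoted on its own, was 27.4, 38.7 and 27.2 in CerM and 28.6, 38.2 and 32.8 in vehicle. The highest ratio in each group was in replicate 2, which had the lowest Bcl2 of its group. Set against Bcl2l1, the most abundant guardian, Bax stood at 0.808 to 0.866 in CerM and 0.853 to 1.06 in vehicle.

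**Figure D3:**
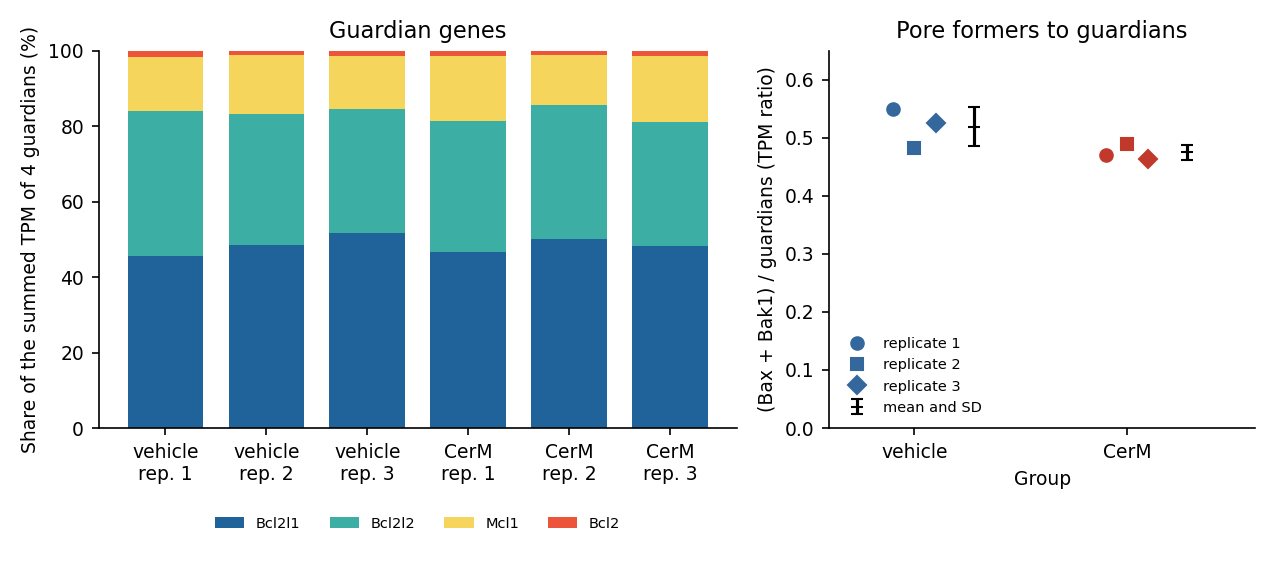
Left, share of each guardian in the summed TPM of the 4 guardians (percent) in each library; right, ratio of Bax plus Bak1 to the 4 guardians per library, with the group mean and SD. Bcl2l1 and Bcl2l2 fill most of every bar, and the ratio of vehicle replicate 2 (0.483) lies among the CerM values of 0.464 to 0.490.

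The BH3-only genes differed in level from each other, and neither showed a difference between groups beyond the spread between libraries. Bad, whose protein neutralises guardians unless phosphorylation and 14-3-3 proteins hold it in the cytosol, had 51.99, 47.22 and 46.72 TPM in CerM and 57.49, 50.33 and 47.70 in vehicle. Vehicle replicate 1 was the highest, and CerM replicate 1 lay above the remaining vehicle libraries. The log2 fold change of Bad was −0.09 (−0.33 to 0.16). Bid, which caspase 8 cleaves to link death receptors to mitochondria, had 9.20, 11.55 and 9.42 TPM in CerM and 8.87, 10.32 and 9.08 in vehicle. In Bid, replicate 2 was the highest of each group, and the log2 fold change was 0.08 (−0.24 to 0.40). Bad exceeded Bid by 4.09 to 6.48 times within libraries.

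Casp9, the initiator caspase of the mitochondrial route, had 10.98, 13.09 and 11.20 TPM in CerM and 9.72, 11.06 and 11.55 in vehicle. Vehicle replicate 1 was the lowest and CerM replicate 2 the highest, and the other 4 libraries lay within 10.98 to 11.55. The log2 fold change of Casp9 was 0.11 (−0.19 to 0.41). Apaf1, which builds the platform on which caspase 9 is activated, was less abundant than Casp9 in each library, by 1.04 to 1.67 times.

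Variation within the groups had a pattern of its own. CerM replicate 2 held the highest value of 5 of the 9 genes (Bcl2l1, Bcl2l2, Bax, Bid and Casp9), and vehicle replicate 1 held the lowest of 5 (Bcl2l1, Mcl1, Bak1, Bid and Casp9). The same libraries were the extremes for many genes: 41.1% of all tested genes were highest in CerM replicate 2 and 32.8% were lowest in vehicle replicate 1. After scaling each library by the median ratio of its genes, CerM replicate 2 was the highest in 2 of the 9 genes and the lowest in 3, beside 22.4% and 20.2% of all tested genes. Vehicle replicate 1 was then the highest in 4 and the lowest in 1, beside 26.1% and 26.3%.

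**Figure D4:**
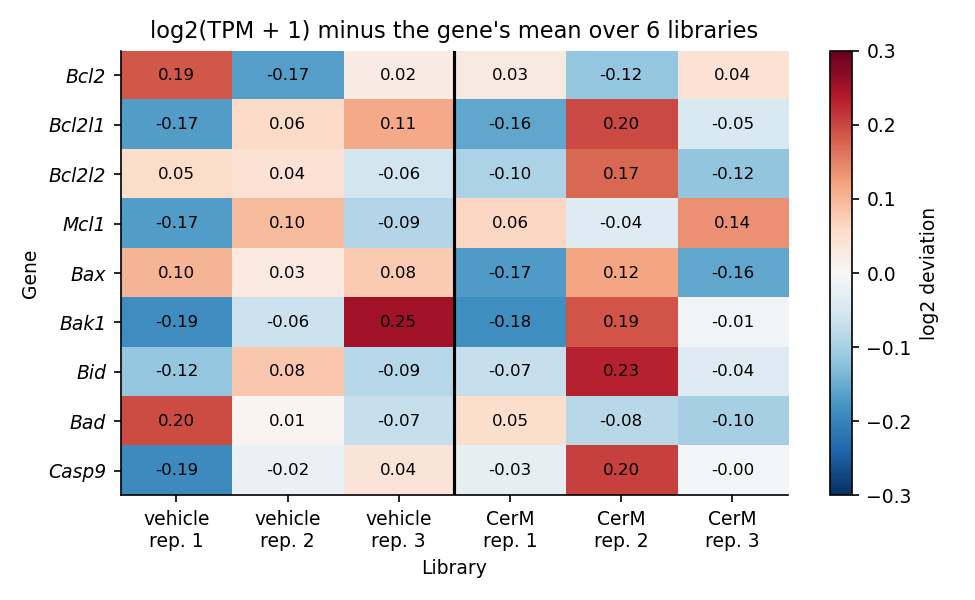
Log2(TPM + 1) of each gene (rows) in each library (columns) as a deviation from its average across all 6, with red above and blue below that mean. CerM replicate 2 is above the mean in 6 of the 9 genes and vehicle replicate 1 below it for 5, and no row parts the 3 vehicle from the 3 CerM columns.

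Libraries also differed in the tissue they held. Markers of hippocampal subfields such as Prox1 and Wfs1 were present in each library, with a summed level of 6 genes of 185 to 232 TPM in CerM and 121 to 203 in vehicle, lowest in vehicle replicate 1. That library also had the highest sum of 6 neocortex markers (143 TPM, 79.4 to 92.0 in the others) and the lowest sum of 7 oligodendrocyte markers (3907 TPM, 5999 to 7147 in the others). Of 7 neuron markers, 3 had a log2 fold change above 0 and 4 below. Their sum was 3872 to 3971 TPM in CerM and 4023 to 4717 in vehicle, and without Snap25, left out after its values were seen, it overlapped at 1969 to 2315 and 2146 to 2175 TPM. Markers of choroid plexus, 7 genes, summed to 9337, 307 and 10990 TPM in CerM and 254, 264 and 15770 in vehicle. Adipocyte markers, also 7 genes, summed to 810 TPM in CerM replicate 3 and to 0.87 to 2.33 elsewhere. Levels within single cell types were not measured, and fewer cells of a type and less RNA per cell cannot be told apart in bulk tissue. With the choroid plexus level as a covariate, chosen after seeing the data, the log2 fold change of Bax was −0.10, and with the neocortex level it was −0.14. Neither fit called any gene.

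By the mean absolute difference between log2 deviations over the 6 libraries, the tested gene nearest in pattern to Bcl2l1 was Baiap2 (0.014), to Bcl2l2 Zbtb17 (0.011), to Bax Abhd14a (0.014) and to Casp9 Zfp623 (0.010). For Bcl2 it was Gadd45b (0.029), for Mcl1 Trp53inp1 (0.025), for Bak1 Taf6 (0.022), for Bid Gps2 (0.021) and for Bad Slbp (0.018). Within the family the nearest pair was Bcl2l1 and Bak1 (0.058), which are a guardian and a pore former. Of all tested genes 4.79% were nearer to Bcl2l1 than Bak1 was.

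The rest of the pathway was read from 9 lists that hold 99 genes in all, of which 79 were tested. Limma called 0 of the 79 at an adjusted p below 0.05, 1 had an unadjusted p below 0.05, and the groups did not overlap in 3 higher and 3 lower, against 3.26% higher and 4.04% lower among all tested genes. Log2 fold changes were above 0 in 52 of the 79 (65.8%), beside 58.8% of all tested genes, and the median was 0.03, as for all tested genes.

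**Figure D5:**
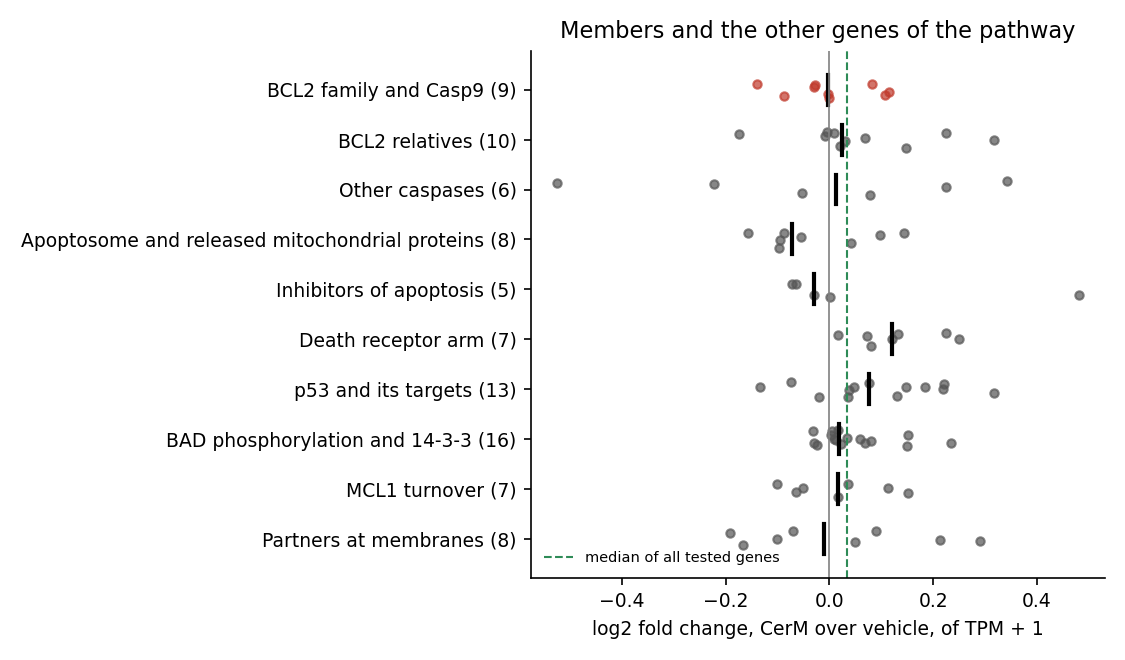
Log2 fold change of TPM + 1, CerM over vehicle, for each tested gene of the BCL2 family and Casp9 (red) and of the other lists of the pathway (grey), with the number of tested genes in parentheses and a bar at each median. The 9 red points lie between −0.14 and 0.11, and list medians run from −0.07 to 0.12.

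Of 17 further relatives of BCL2, 10 were tested, 7 of them above 0 and 3 below (median 0.03). Bnip3, a BH3-like receptor for mitophagy, was the most abundant and had the smallest p, 0.0735. It had 143.20, 149.45 and 150.27 TPM in CerM and 176.74, 168.71 and 155.33 in vehicle, so that its groups did not overlap, at a log2 fold change of −0.17 ± 0.08 (SE) and an adjusted p of 0.989 by limma. Bok, a BAX-like gene singled out after its values were seen, came close to Bax in level with 68.6 ± 8.14 TPM (CerM) and 67.8 ± 22.1 (vehicle). Its lowest value, 42.66, was in vehicle replicate 1. Hrk, a BH3-only gene also singled out afterwards, had 14.7 ± 1.76 TPM in CerM and 14.3 ± 0.68 in vehicle. That was above Bid, at 10.1 ± 1.30 TPM in CerM and 9.42 ± 0.78 in vehicle. Bbc3, which encodes the p53-induced BH3-only protein PUMA, had 7.16, 3.57 and 4.48 TPM in CerM and 2.90, 3.50 and 5.02 in vehicle. Bcl2l10 was listed at 0 TPM in each library, and 6 more relatives had a mean under 1 TPM.

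Among 9 other caspases, 6 were tested, 3 above 0 and 3 below (median 0.01). Casp8, the initiator at death receptors, had the smallest p (0.188) at 2.98 ± 1.00 against 2.08 ± 0.38 TPM. Casp1, an inflammatory caspase, had 0.93, 0.60 and 1.35 TPM in CerM and 4.12, 1.69 and 0.57 in vehicle, with the spread within vehicle larger than the difference. Casp4, another inflammatory caspase and singled out afterwards, was below the minimum for testing at 0.29, 0.00 and 0.10 TPM in CerM and 0.82, 1.10 and 0.36 in vehicle. Without the minimum its log2 fold change was −0.62 ± 0.18 (SE), with an unadjusted p of 0.014 and an adjusted p of 0.934 by limma. In that fit 2.98% of 27676 genes had an unadjusted p below 0.05.

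Downstream of the pore, all 8 genes of the apoptosome and of released mitochondrial proteins were tested, 3 above 0 and 5 below (median −0.07). Cycs, which encodes cytochrome c, was the most abundant at 81.4 ± 8.79 against 90.7 ± 7.93 TPM and also had the smallest p, 0.208. Of 9 inhibitors of apoptosis, 5 were tested, 2 above 0 and 3 below (median −0.03). Birc6, a giant ubiquitin ligase, was the most abundant at 32.0 ± 2.89 against 32.1 ± 4.46 TPM. Birc5, which encodes survivin, a protein of dividing cells, had 1.41, 2.16 and 1.51 TPM in CerM and 0.94, 0.97 and 0.84 in vehicle. Its groups did not overlap, and the log2 fold change was 0.48 ± 0.20 (SE) with an unadjusted p of 0.0487 and an adjusted p of 0.989 by limma. Among 12 genes of the death receptor arm, the 7 tested all had a log2 fold change above 0 (0.02 to 0.25, median 0.12). The groups overlapped in all 7. The median was −0.02 when vehicle replicate 1 and CerM replicate 3 were both left out, and 0.02 to 0.20 in the other settings. Tnfrsf1a, a receptor for TNF, had the smallest p (0.311) at 10.5 ± 3.08 against 8.64 ± 2.18 TPM, and Tnfrsf21 was the most abundant at 68.0 ± 9.47 against 62.9 ± 11.7 TPM.

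In the lists of p53 and its targets, BAD control, MCL1 turnover and partners at membranes, limma likewise called 0. The groups did not overlap in Sesn2 and Rps6ka1 (higher in CerM) and Becn1 and Bag1 (lower). Among all tested genes, 3.26% were higher and 4.04% lower without overlap. Sesn2 and Becn1 are named after their values were seen. Of 15 genes of p53 and its targets, a pathway that induces Bax in many cells, 13 were tested, 10 above 0 and 3 below (median 0.08), with Mdm2 at the smallest p (0.19) and 27.3 ± 1.77 against 24.5 ± 1.38 TPM, and Sesn1 the most abundant at 42.1 ± 4.02 against 40.9 ± 2.47 TPM. Of 16 kinases, phosphatases and 14-3-3 genes that control BAD, all were tested, 13 above 0 and 3 below (median 0.02). Rps6ka1, a kinase of BAD, had the smallest p (0.14) at 8.53 ± 0.95 against 7.10 ± 0.74 TPM with groups that did not overlap, and Ywhah, a 14-3-3 gene, was the most abundant at 1678 ± 31.3 against 1709 ± 142 TPM. The 7 genes of MCL1 turnover split 4 above 0 and 3 below (median 0.02), with Trim17 at the smallest p (0.402) and Gsk3a the most abundant at 182 ± 20.3 against 190 ± 4.50 TPM. The 8 partners at membranes split 4 and 4 (median −0.01). In that list Bag1, a co-chaperone that binds BCL2, had the smallest p (0.0592) with 120.89, 118.52 and 115.03 TPM in CerM, all below the 145.77, 132.65 and 127.20 TPM in vehicle, at a log2 fold change of −0.19 ± 0.09 (SE) and an adjusted p of 0.989 by limma. Tmbim6, an inhibitor of BAX-induced death in the endoplasmic reticulum, was the most abundant at 263 ± 23.5 against 248 ± 35.6 TPM.

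Some members share sequence with other genes of the annotation, and how reads were divided between them is not stated. Bid and Bcl2l13, another relative of BCL2, lie on opposite strands and overlap, with an aligned stretch of 629 bases. Bcl2l13 had 15.49 to 35.98 TPM, and the labels do not say whether strand was kept, so reads from that stretch cannot be told apart. Bad overlaps Gpr137 on the opposite strand in the same way over 519 bases, and Gpr137 stood at 81.4 TPM on average, above Bad. Bcl2l2 overlaps Gm20521, a model on the same strand that shares 595 aligned bases with it and had a mean of 4.58 TPM. Bak1 overlaps Ggnbp1 on the opposite strand, with an aligned stretch of 263 bases, and Ggnbp1 had a mean of 3.5 TPM.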

How the data were processed

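RNA of hippocampus was sequenced in 6 libraries, 3 CerM and 3 vehicle, grouped by sample title. Per the labels' protocols, TRIzol extraction and DNase I treatment preceded TruSeq library preparation. The submitters' processing notes name HISAT2, StringTie and RSEM as tools and GRCm39 as the build, and give neither versions nor roles. The deposited values are TPM per gene with 2 decimals, so the depth is unknown and no count test or counting interval was used. Errors are SDs over libraries or standard errors of the fit. TPM totals ran from 993379 to 995403, and no 2 libraries were identical.

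Genes with a mean of at least 1 TPM were tested with limma 3.58.1 in R 4.3.3 on log2(TPM + 1) with a variance trend, two-sided, adjusted by Benjamini-Hochberg over 14916 genes at 0.05; the fold change understates that of low genes. The fit was also run on simulated data with independent errors drawn from its own variance model. Those data lack the tissue differences between libraries, so that run cannot show how the fit handles them. The members, lists and tests were chosen with earlier results of these data known. Named beside the members were, by rule, the gene with the smallest p and the most abundant gene of each list and the gene nearest in pattern to each member; 1 gene that the rule names is not reported here. The main fit did not pair CerM and vehicle libraries by replicate number, and whether the number pairs them is not settled here. Correlations of their deviations from group means were 0.01, 0.20 and 0.22 for shared numbers 1 to 3. For unlike numbers they ran from −0.21 to 0.07. Sequences, transcript models and overlaps come from GENCODE M21 (build GRCm38), by Ensembl identifier. Coding stretches and overlaps were taken from positions in that build, while the submitters' notes name GRCm39. Python 3.11.15 with pandas 2.3.3 and matplotlib 3.10.9 was used.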

Additional observations from a re-analysis of the deposited data

How the results depend on the processing

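No setting called any of the 9 genes, with adjusted p-values from 0.24 (Bax) to 1 over all of them. Mcl1 and Casp9 stayed above 0 and Bax below 0 in each of the 19 other settings. Leaving out 1 library at a time, log2 fold changes ran from −0.12 to 0.056 for Bcl2, −0.102 to 0.075 for Bcl2l1, −0.122 to 0.025 for Bcl2l2, 0.050 to 0.182 for Mcl1, −0.234 to −0.089 for Bax, −0.096 to 0.124 for Bak1, −0.013 to 0.142 for Bid, −0.144 to −0.012 for Bad and 0.041 to 0.162 for Casp9. Genes called over the whole table numbered 0 to 7 in these fits (7 without CerM replicate 3, among them Gm10217) and 1 when vehicle replicate 1 and CerM replicate 3 were both left out, against 0 with all libraries. The cause of the other changes of sign was not tested. With sample weights Bcl2 was at 0.148, Bak1 at 0.012 and Bid at −0.072. Bcl2l1 was at 0.020 under quantile normalization, and without mitochondrial genes Bcl2l1 was at 0.012 and Bak1 at 0.013. With vehicle replicate 1 and CerM replicate 3 both left out, Bcl2 was at 0.027, Bcl2l2 at 0.045 and Bad at 0.016. With marker levels as covariates, added after seeing the data, Bcl2l1 was at 0.010 and Bcl2l2 at 0.027 for choroid plexus and Bcl2 at 0.065 for neocortex. The replicate block called 0 genes and left Bax at −0.14 with an adjusted p of 0.98 by limma. Sample weights raised the genes at an unadjusted p below 0.05 from 402 to 2696, and 966 had one without vehicle replicate 3. Pseudocounts of 0.1 and 0.5 moved Birc5 to 0.80 and 0.62. List medians near 0 moved with single libraries: that of the BCL2 relatives was 0.22 without vehicle replicate 3, and that of the apoptosome list 0.0005 without CerM replicate 3. TPM keeps no depth, which limits the low genes, Bcl2 and Birc5 among them, most.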
